A study of Mus musculus with 32 samples.

Results

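The 39 *Hox* genes measured in the series were examined as a group, by cluster and by paralog number, in mouse colon and in colon tumors of the azoxymethane/dextran sulfate sodium (AOM/DSS) model. Members were the rows of the count table whose symbol was *Hox*, a cluster letter from a to d and a number, 39 of 55291 gene symbols, with 11 genes in HoxA, 10 in HoxB, 9 in HoxC and 9 in HoxD. All mice were C57BL/6 and were either WT or carried a full-body, constitutive KO of *Dnase1l3*, which encodes a secreted DNase. AOM is a carcinogen that was injected, and DSS in the drinking water injures the colon epithelium. Each genotype gave 4 whole colons at each of 3 stages: untreated (D0), D19 after 1 AOM/DSS cycle with recovery, and D80 after 3 such cycles. Tumors taken after the 3 cycles came from 5 WT and 3 KO mice, and 3 mice of each genotype gave both a D80 colon and a tumor library. Mice entered the AOM/DSS protocol at 3 months of age, and the ages at the later samplings are not given in the sources used here.

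*Hox* genes encode homeodomain transcription factors that tell cells where they lie along the head-to-tail axis of the embryo. They sit in 4 clusters, and the order of the genes along a cluster matches the order of their domains in the body, with low paralog numbers toward the head and high numbers toward the tail. The pattern is partly kept in adult tissue, so that the gut carries a *Hox* code along its length, in its epithelium and in its mesenchyme. Paralog 13 genes mark the end of the hindgut: *Hoxa13* and *Hoxd13* are required to form the anorectal region, and *Hoxb13* is known from the distal colon, rectum and prostate.

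The 32 libraries held 18951121 to 47623288 counts each. *Dnase1l3* does not check the genotype labels at D0: WT libraries had 3.06, 2.37, 1.79 and 3.59 CPM (counts scaled to a common library size), and KO libraries had 5.02, 3.0, 3.29 and 1.64 CPM. By edgeR's quasi-likelihood test the log2 fold change was 0.27 ± 0.33 SE, with an adjusted p of 0.827. The paper reports that *Dnase1l3* expression was strongly reduced along the whole KO intestine and that KO serum digested DNA poorly. Which exons the KO allele lacks is not given in the sources used here, so WT and KO name libraries by their labels throughout. Among treated colon and tumor, 3 libraries had a high share of mitochondrial counts, KO D19 mouse 811 with 10.4%, WT D80 mouse 581 with 14.8% and KO tumor mouse 544 with 7.93%. These 3 libraries were also the lowest of their group in 17 of 25, 19 of 27 and 18 of 25 *Hox* genes, and several values are also given without them. Untreated colons had mitochondrial shares of 7.15% to 11.3% in WT and 8.53% to 11.2% in KO. At D19 the share was 5.34% to 6.09% in WT and 5.03% to 10.4% in KO. The part of this share in the values of D19 against D0 was not tested. The colon marker list, which holds *Car1*, *Cdx1*, *Cdx2*, *Muc2*, *Best2*, *Slc26a3* and *Aqp8* among others, summed to 3454 to 19823 CPM in the colon libraries.

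*Hox* transcripts were a small and uneven part of these libraries. They took 427539 counts in all, from 201 CPM in WT D80 mouse 581 to 702 CPM in WT tumor mouse 555 (per total count). *Hoxb13* alone held 32.3% of them, followed by *Hoxa10* with 13.2%, *Hoxa9* with 11%, *Hoxa13* with 9.09% and *Hoxb9* with 7.06%. The 9 HoxC genes together held 287 counts, 0.0671% of the total, and 4 of those counts were in the 8 tumor libraries. No count of *Hoxb1* or *Hoxc12* was found in any library, where the limit that a count of 0 allows (3 counts) lay between 0.063 and 0.158 CPM depending on depth. In all, 27 genes had enough counts for a test in at least 1 comparison. The 12 that did not were *Hoxb1*, *Hoxd1*, *Hoxd3*, *Hoxd4* and all HoxC genes other than *Hoxc4*, which were too low for a test after the filter on low counts.

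**Figure D1:**
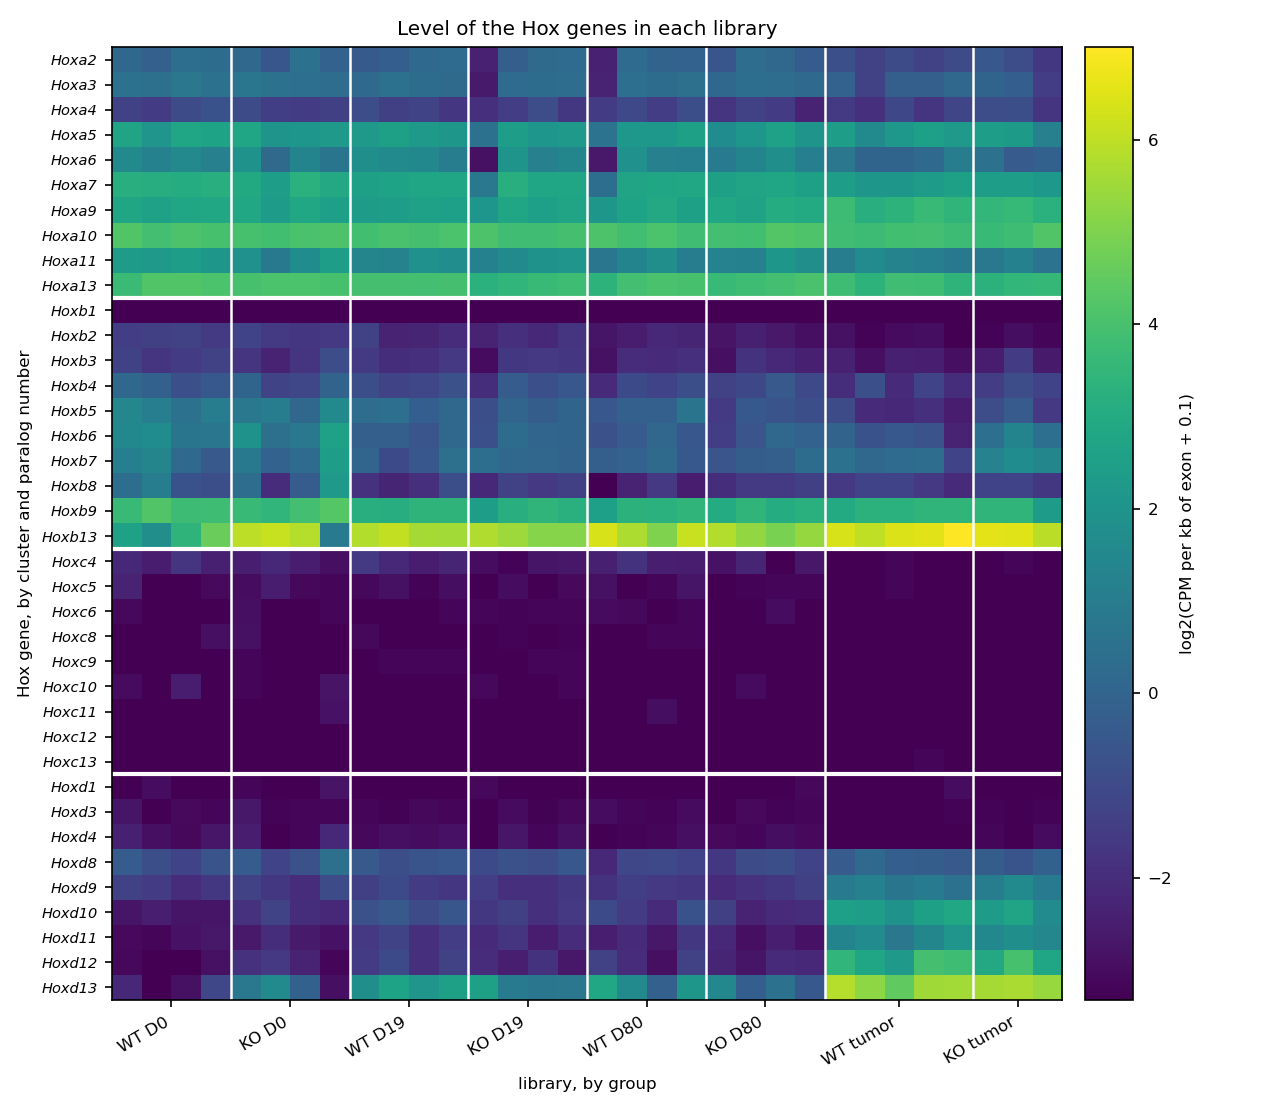
Level of the *Hox* genes reported (rows, by cluster and paralog number) in each of the 32 libraries (columns, by group), as log2(CPM per kilobase of exon + 0.1). HoxC rows are near the bottom of the scale in all libraries, and *Hoxd13* to *Hoxd9* brighten in the 8 tumors.

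Per kilobase of exon, which allows levels to be compared between genes, *Hoxb13* led with a median of 54.8 CPM per kb over the 32 libraries. *Hoxa10* (15.2), *Hoxa13* (14.5), *Hoxb9* (10.4), *Hoxa9* (6.78) and *Hoxa7* (6.52) followed, and *Hoxd13* was the highest HoxD gene with 2.88. Libraries varied more in these levels than the order of medians shows: in WT D0 colon the mean levels of *Hoxa13* (16.6 CPM per kb), *Hoxa10* (16.5), *Hoxb9* (14.5) and *Hoxb13* (11.2) were close. In WT tumors *Hoxb13* reached 91.0 and *Hoxd13* 42.1 CPM per kb, and in KO tumors 82.3 and 47.7, with *Hoxa10* at 14.1 in WT tumors. Because whole colon is a mixture, fewer cells of a type and less RNA per cell cannot be told apart in any of these values.

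The genes also differed in how constant they were. *Hoxa10*, a paralog 10 gene of the posterior HoxA group, had a highest library only 1.45 times its lowest one, with group means between 46.2 and 53.8 CPM. *Hoxa13* spanned 1.94 times and *Hoxa9* 3.13 times. By contrast *Hoxb5*, *Hoxb6*, *Hoxb13* and *Hoxa6* spanned 40.6, 57.7, 70.7 and 104 times. The low end of *Hoxa6* was set by WT D80 mouse 581 and KO D19 mouse 811, with 0.0563 and 0.0338 CPM, both among the libraries of high mitochondrial share.

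The HoxD cluster held a larger share of the summed level in tumors than in any colon library, while the HoxA share also varied among colons. HoxA genes made up 58.3% to 69.5% of the summed level per kilobase in WT D0 colon and 36.0% to 57.8% in KO D0. At D19 they made up 39.5% to 45.5% in WT and 34.8% to 52.2% in KO. The HoxA share was 26.7% to 55.7% in WT D80, 41.9% to 59.1% in KO D80 and 19.1% to 28.2% in the 8 tumors. The lowest WT D80 value, that of mouse 581, lay within the tumor range, and the other 3 WT D80 colons had 37.8% to 55.7%. HoxD genes made up 0.647% to 1.44% in WT D0, 1.28% to 2.94% in KO D0, 4.14% to 6.18% in WT D19, 2.50% to 6.53% in KO D19, 1.53% to 5.99% in WT D80 and 1.40% to 3.07% in KO D80. In tumors the HoxD share was 18.5% to 34.3% in WT and 29.4% to 33.5% in KO, so that no colon library overlapped the tumors. Paralogs 12 and 13 together held 20.2% to 38.3% of the level in WT D0 and 17.2% to 63.5% in KO D0. At D19 they held 54.1% to 61.8% in WT and 46.9% to 65.4% in KO. Their share was 46.5% to 74.3% in WT D80, 43.1% to 60.1% in KO D80, 67.0% to 75.5% in WT tumors and 68.8% to 71.0% in KO tumors. Here WT D80 and WT tumors overlapped through mouse 581, the other 3 WT D80 colons having 46.5% to 62.2%. Paralogs 5 to 8 held 20.2% to 29.1% in WT D0 and 5.17% to 6.85% in WT tumors, but also as little as 3.52% in WT D80. These shares are compositional, so that a rise of *Hoxb13* and *Hoxd13* lowers the share of every other gene.

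**Figure D2:**
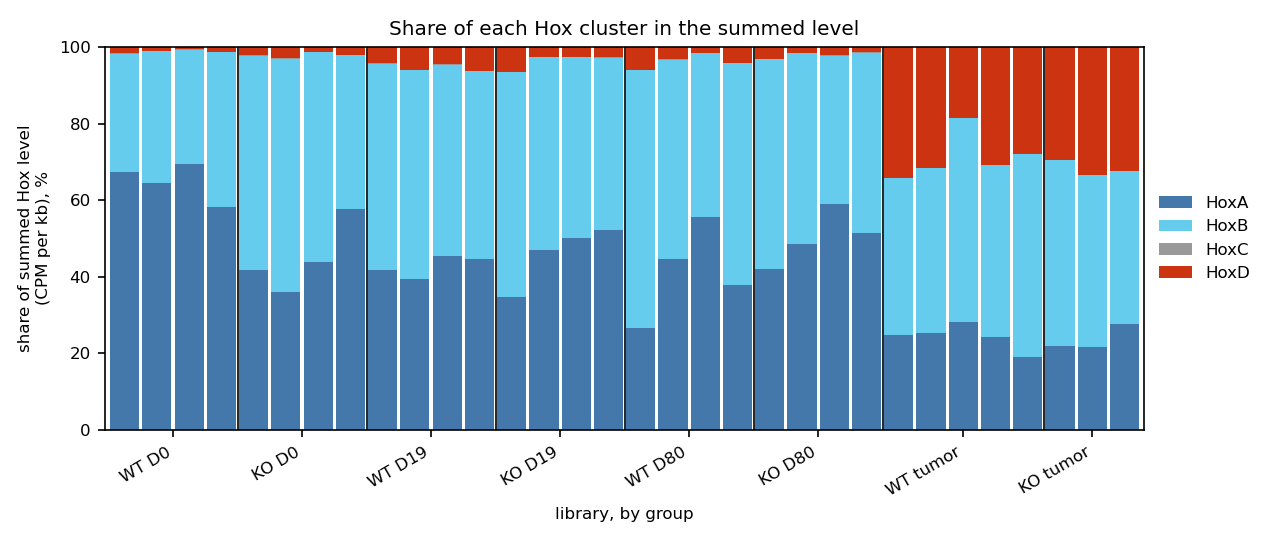
Share of HoxA, HoxB, HoxC and HoxD in the summed *Hox* level (CPM per kilobase, in percent) of each of the 32 libraries, ordered by group. The HoxD segment is at most 6.53% in colon and lies between 18.5% and 34.3% in tumors.

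In untreated colon the question was whether loss of *Dnase1l3* went with another *Hox* level before any treatment. *Hoxb13* had 13.1, 7.37, 22.9 and 55.1 CPM in the WT libraries and 139, 154, 127 and 4.0 CPM in the KO libraries. *Hoxd13* had 0.306, 0, 0.0896 and 0.906 CPM in WT and 4.09, 7.12, 2.07 and 0.0876 CPM in KO. For both genes, 3 of 4 KO libraries lay above all WT libraries and KO mouse 872 lay below or among the lowest of them. None of the 22 *Hox* genes tested was called different between genotypes at D0 by edgeR (adjusted p under 0.05 and fold change over 2), nor was any by DESeq2, and 2 of the 22 had an unadjusted p under 0.05. The background was the same, with 0% of 18175 genes called higher and 0% called lower. The log2 fold change of KO against WT was 3.21 ± 1.02 SE for *Hoxd13* (adjusted p = 0.468, edgeR) and 2.12 ± 0.84 for *Hoxb13* (adjusted p = 0.487). *Hoxa11*, the third by p, had -0.47 ± 0.26 (adjusted p = 0.572).

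KO mouse 872 stood apart from its group in most of the HoxB cluster. It had 49.9 CPM of *Hoxb9*, 11.9 of *Hoxb8*, 11.7 of *Hoxb6*, 8.27 of *Hoxb7* and 8.21 of *Hoxb5*, each the highest value of the KO D0 group, together with its lowest *Hoxb13* and *Hoxd13*. WT mouse 918 was likewise the highest WT D0 library in *Hoxb9* (46.8 CPM), *Hoxb8* (5.05), *Hoxb6* (6.11) and *Hoxb7* (3.89), though not in *Hoxb5*. That library also had the lowest *Hoxb13* (7.37 CPM) and *Hoxd13* (0 CPM) of its group. Across untreated mice, the same libraries differed in the colon marker sum: KO mouse 872 and WT mouse 918, which had the lowest *Hoxb13* levels of their genotypes, had the highest sums, 19378 and 19823 CPM, against 8734 to 13282 in the other 6. The members of that list did not move together. Between genotypes at D0 their log2 fold changes (edgeR) ran from -0.29 ± 0.26 for *Muc2* to 2.64 ± 0.53 for *Best2*, none of them called. The part of the colon marker sum in the genotype values was not tested. Without mouse 872, and with WT mouse 918 kept, the log2 fold changes were 3.62 ± 0.71 for *Hoxd13* (adjusted p = 0.0865, edgeR) and 2.52 ± 0.50 for *Hoxb13* (adjusted p = 0.0890). The first number of the sample titles, whose meaning the labels do not give, was shared by mice of both genotypes. In a fit with that number as a block, in which mice 872 and 927 carry no weight because each is alone on its number, *Hoxd13* (4.58, adjusted p = 0.00145) and *Hoxb13* (3.28, adjusted p = 0.000903) were called higher in KO.

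**Figure D3:**
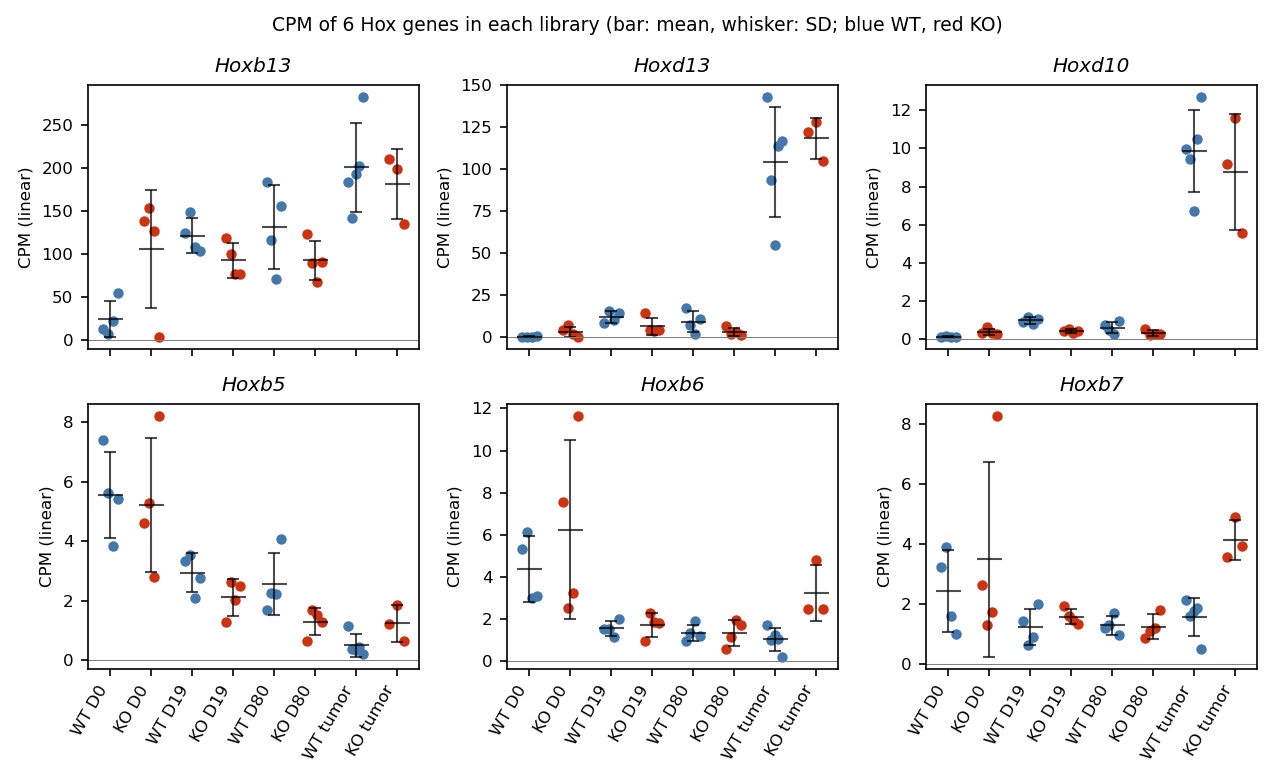
CPM of *Hoxb13*, *Hoxd13*, *Hoxd10*, *Hoxb5*, *Hoxb6* and *Hoxb7* in each library of the 8 groups (linear axes; points are libraries, long bar the mean, whiskers the SD; blue WT, red KO). *Hoxd13* and *Hoxd10* are high in all 8 tumors, and 1 KO D0 library, mouse 872, is low in *Hoxb13* and highest in *Hoxb5*, *Hoxb6* and *Hoxb7*.

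After 1 cycle of AOM/DSS, the posterior HoxD genes and *Hoxb13* rose in WT colon and middle HoxB genes fell. *Hoxd13* went from 0 to 0.906 CPM at D0 (mean 0.325 ± 0.408 SD, n = 4) to 8.42, 15.5, 10.03 and 14.3 CPM at D19 (12.1 ± 3.37). *Hoxd10* went from 0.0873, 0.151, 0.0896 and 0.0937 to 0.884, 1.17, 0.760 and 1.05 CPM. *Hoxb13* went from 24.6 ± 21.3 to 121 ± 20.3 CPM, with libraries of 124, 148, 108 and 103 CPM at D19. All D19 libraries lay above all D0 libraries for these 3 genes. In all, 5 of the 25 *Hox* genes tested lay entirely above and 5 entirely below, where 24.9% and 18.6% of all genes did. The log2 fold changes were 4.98 ± 0.60 SE for *Hoxd13* (adjusted p = 0.000199, edgeR), 3.98 ± 0.62 for *Hoxd12* (0.00079), 3.14 ± 0.31 for *Hoxd10* (9.82e-05), 2.73 ± 0.41 for *Hoxd11* (0.0006) and 2.24 ± 0.50 for *Hoxb13* (0.00476). The *Hoxd12* estimate rests on 4 counts in the WT D0 group against 106 at D19, and those of *Hoxd10* and *Hoxd11* on 10 and 15 counts at D0.

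*Hoxb6* fell by 1.54 ± 0.29 on the log2 scale (adjusted p = 0.00194, edgeR), from 5.33, 6.11, 3.0 and 3.09 CPM at D0 to 1.54, 1.53, 1.11 and 2.01 CPM at D19. *Hoxb8* fell by 2.17 ± 0.56 (adjusted p = 0.0103), although its groups overlapped, with 1.19 CPM the lowest at D0 and 1.2 CPM the highest at D19. A further 6 genes, *Hoxa7*, *Hoxb9*, *Hoxa11*, *Hoxb5*, *Hoxa9* and *Hoxb4*, passed the adjusted p with a decrease of less than 2-fold. In all, 5 of 25 *Hox* genes tested were called higher and 2 lower at D19 in WT, where 9.33% and 4.04% of all genes were. The median log2 fold change was -0.31 over the *Hox* genes and 0.00 over all 18570 genes tested. By paralog number, 3 of 4 genes of paralogs 12 and 13 and 2 of 7 of paralogs 9 to 11 were called higher, and both genes called lower were among the 8 of paralogs 5 to 8. Among the genes called higher, *Hoxd10* to *Hoxd13* passed the count filter only through the D19 libraries, which favours a call higher. Of the genes called lower, *Hoxb8* passed it only through the D0 libraries, which favours a call lower.

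In KO colon the same step left the posterior genes without a call. *Hoxd13* had 14.2, 4.38, 3.84 and 4.04 CPM at D19, against 4.09, 7.12, 2.07 and 0.0876 CPM at D0, and the highest D19 value belonged to mouse 811, one of the libraries of high mitochondrial share. Its log2 fold change was 0.97 ± 0.87 (adjusted p = 0.613, edgeR), or 0.27 ± 0.80 without mouse 811 (adjusted p = 0.831). That of *Hoxb13* was -0.21 ± 0.75 (adjusted p = 0.933), or -0.36 ± 0.80 without it. *Hoxb6* fell by 1.87 ± 0.50 (adjusted p = 0.0351) and *Hoxb5* fell by 1.31 ± 0.36 (adjusted p = 0.0379), with 2.8 to 8.21 CPM of *Hoxb5* at D0 and 1.28 to 2.63 CPM at D19. *Hoxb8*, next by p, had -2.79 ± 0.84 (adjusted p = 0.058). No *Hox* gene of the 25 tested was called higher (all genes 8.95%) and 2 were called lower (all genes 2.52%). Both calls were lost when any 1 of D0 mice 852 and 872 or D19 mice 813, 803 and 804 was left out, with *Hoxb6* at an adjusted p of 0.104 and *Hoxb5* at 0.115 without mouse 872. *Hoxb6* was the only gene called the same way in both genotypes.

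**Figure D4:**
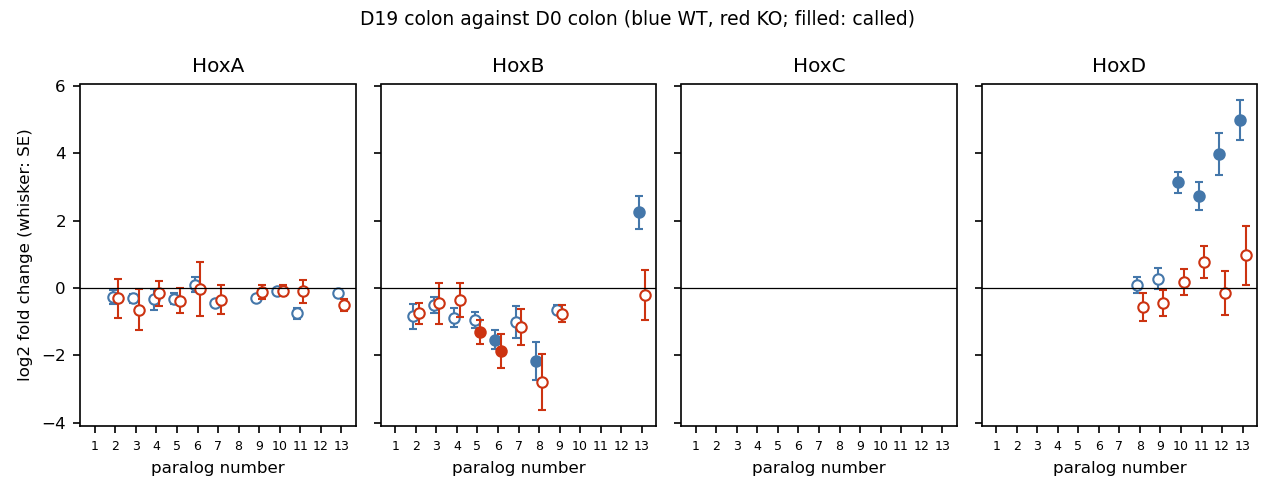
Log2 fold change (± SE) of D19 against D0 colon for the *Hox* genes reported, by paralog number in the 4 clusters (blue WT, red KO; filled points are called at adjusted p under 0.05 and fold over 2). In WT, *Hoxd10* to *Hoxd13* and *Hoxb13* are filled and above 0, whereas the KO points of the same genes are open.

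The difference between genotypes in this step was tested as an interaction, the KO change minus the WT change. *Hoxd10* had -2.96 ± 0.50 (adjusted p = 0.0585, edgeR), *Hoxd12* had -4.16 ± 1.04 (adjusted p = 0.187) and *Hoxd13* had -4.04 ± 1.21 (adjusted p = 0.279). The WT D0 libraries in this test held only 2, 3, 2 and 3 counts of *Hoxd10* and 1, 0, 0 and 3 of *Hoxd12*. By edgeR 0 of the 27 *Hox* genes tested was called, with 6 at an unadjusted p under 0.05, against 0% of all genes called higher and 0.0298% called lower. DESeq2, which over all genes also made more calls here than edgeR (counts in the last paragraph), called *Hoxd10* (adjusted p = 0.00545) and *Hoxd12* (adjusted p = 0.0256). Without KO D0 mouse 872 edgeR called both as well (adjusted p = 0.0144 and 0.0446), and *Hoxd10* was also called without WT D19 mouse 805 (0.0314) or without KO D19 mouse 811 (0.0398). The interaction uses the same D0 libraries as the KO and WT comparison at D0, where 3 KO libraries already had more *Hoxd13* and *Hoxb13* than all WT libraries, so these results do not stand independently of each other.

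Stage and the first number of the titles could not be separated between D0 and D19, since no number occurs at both, and their effects cannot be told apart. Markers of other cell types changed over the same step. Of all genes, 9.33% were called higher and 4.04% lower in WT, and 8.95% and 2.52% in KO. Fibroblast markers were called higher in 7 of 8 genes in WT and 8 of 8 in KO, and immune markers in 8 of 8 in both. Smooth muscle markers were called lower in 7 of 10 in WT and 3 of 10 in KO. The colon list had 1 of 8 higher, *Best2* (3.94 ± 0.22), and 3 lower in WT, and 0 higher and 4 lower in KO. The summed fibroblast markers were 386 to 883 CPM in WT D0 and 1511 to 3417 CPM in WT D19, the immune markers 14.6 to 35.8 and 125 to 209 CPM, and the smooth muscle markers 6678 to 12668 and 3981 to 6183 CPM. The part of these cell types in the *Hox* values was not tested.

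At D19 edgeR called no *Hox* gene between the genotypes, and KO libraries lay entirely below WT in 2 of the 25 tested, *Hoxd10* and *Hoxa13*. *Hoxd10* had 0.405, 0.514, 0.300 and 0.417 CPM in KO against 0.760 to 1.17 CPM in WT, without overlap. Its log2 fold change was -1.21 ± 0.29 (adjusted p = 0.311, edgeR), followed by *Hoxd12* with -1.24 ± 0.44 (0.4) and *Hoxd11* with -0.84 ± 0.36 (0.436), and *Hoxb13* had -0.35 ± 0.23 (0.551). Without KO mouse 811, *Hoxd13* moved from -0.81 ± 0.47 (0.496) to -1.57 ± 0.22 (0.195). Among the 25 tested, edgeR called 0 (all genes 0% higher, 0% lower) with 4 at an unadjusted p under 0.05, whereas DESeq2 called 1, *Hoxd10* (adjusted p = 0.0307). Over all genes DESeq2 also made more calls than edgeR at D19, with both counts given in the last paragraph. For *Hoxa13*, KO libraries of 23.4 to 34.0 CPM lay below WT libraries of 36.9 to 38.5 CPM. Of all genes tested, 4.85% had KO libraries entirely below WT and 4.23% entirely above.

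At D80 the genotypes overlapped in every *Hox* gene tested, where 3.34% of all genes lay entirely above in KO and 1.91% entirely below. *Hoxd13* had 17.4, 7.19, 1.97 and 10.7 CPM in WT and 6.81, 1.87, 3.29 and 1.53 CPM in KO, and *Hoxb13* had 184, 116, 71.6 and 155 CPM in WT and 123, 89.4, 67.8 and 91.0 CPM in KO. Both tools called 0 of the 25 *Hox* genes tested (all genes 0% higher and 0% lower), with 1 at an unadjusted p under 0.05 in edgeR. The smallest p belonged to *Hoxb5* (-1.02 ± 0.36), *Hoxd13* (-1.54 ± 0.69) and *Hoxd10* (-0.95 ± 0.49), and these as well as *Hoxb13* (-0.57 ± 0.33) had an adjusted p of 0.681. Without WT mouse 581, the highest WT library in both *Hoxd13* and *Hoxb13*, the values were -0.99 ± 0.63 for *Hoxd13* and -0.31 ± 0.26 for *Hoxb13*.

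Tumors differed from D80 colon mainly in the 5' part of the HoxD cluster, the genes from *Hoxd8* to *Hoxd13*. These genes lie head to tail on the plus strand of chromosome 2 (GRCm38), from *Hoxd13* at 74668310 to 74671599 to *Hoxd8* at 74704615 to 74707933, with *Hoxd13* nearest the end of the cluster that is expressed most posteriorly. Their summed level was 4.06 to 19.9 CPM in WT D80 colon and 85.7 to 196.9 CPM in WT tumors, and 3.81 to 9.06 CPM and 144.5 to 202.4 CPM in KO. The 250 bases before each RefSeq start of the 6 genes (GRCm38.p6, plus strand) are given below because the 7 start regions differ widely in the density of CG dinucleotides, which are in capitals. They are chr2:74667975-74668224 for *Hoxd13*, chr2:74674763-74675012 for *Hoxd12*, chr2:74679308-74679557 for the first and chr2:74682073-74682322 for the second start of *Hoxd11*, chr2:74691641-74691890 for *Hoxd10*, chr2:74697513-74697762 for *Hoxd9* and chr2:74704365-74704614 for *Hoxd8*.
Hoxd13: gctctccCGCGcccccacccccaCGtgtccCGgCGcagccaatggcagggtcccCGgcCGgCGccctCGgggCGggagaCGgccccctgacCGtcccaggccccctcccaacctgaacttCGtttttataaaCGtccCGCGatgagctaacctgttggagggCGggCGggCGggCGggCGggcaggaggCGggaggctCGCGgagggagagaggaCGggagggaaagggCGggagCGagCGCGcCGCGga
Hoxd12: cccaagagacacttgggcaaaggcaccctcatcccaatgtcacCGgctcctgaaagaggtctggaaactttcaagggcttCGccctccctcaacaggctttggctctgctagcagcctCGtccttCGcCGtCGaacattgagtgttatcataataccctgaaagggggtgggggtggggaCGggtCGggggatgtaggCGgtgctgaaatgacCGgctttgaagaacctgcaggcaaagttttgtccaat
Hoxd11, first start: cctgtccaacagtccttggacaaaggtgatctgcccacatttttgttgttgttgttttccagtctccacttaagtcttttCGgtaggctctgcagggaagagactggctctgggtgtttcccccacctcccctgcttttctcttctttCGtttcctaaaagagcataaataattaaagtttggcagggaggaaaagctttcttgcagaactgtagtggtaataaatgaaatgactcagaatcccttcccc
Hoxd11, second start: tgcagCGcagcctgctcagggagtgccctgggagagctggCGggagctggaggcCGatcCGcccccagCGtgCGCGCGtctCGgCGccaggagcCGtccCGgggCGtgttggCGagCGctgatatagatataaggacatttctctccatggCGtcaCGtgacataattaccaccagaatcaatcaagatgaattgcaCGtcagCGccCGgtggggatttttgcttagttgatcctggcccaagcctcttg
Hoxd10: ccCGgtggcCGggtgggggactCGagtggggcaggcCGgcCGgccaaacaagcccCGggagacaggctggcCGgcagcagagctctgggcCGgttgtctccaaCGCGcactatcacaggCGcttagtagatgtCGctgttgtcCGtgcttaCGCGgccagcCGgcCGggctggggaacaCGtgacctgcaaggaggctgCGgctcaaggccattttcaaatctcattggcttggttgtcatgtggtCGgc
Hoxd9: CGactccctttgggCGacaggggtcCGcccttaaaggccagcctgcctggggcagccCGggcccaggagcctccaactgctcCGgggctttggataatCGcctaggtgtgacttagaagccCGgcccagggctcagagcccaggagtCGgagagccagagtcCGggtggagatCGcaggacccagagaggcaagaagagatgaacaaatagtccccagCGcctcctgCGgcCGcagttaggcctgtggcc
Hoxd8: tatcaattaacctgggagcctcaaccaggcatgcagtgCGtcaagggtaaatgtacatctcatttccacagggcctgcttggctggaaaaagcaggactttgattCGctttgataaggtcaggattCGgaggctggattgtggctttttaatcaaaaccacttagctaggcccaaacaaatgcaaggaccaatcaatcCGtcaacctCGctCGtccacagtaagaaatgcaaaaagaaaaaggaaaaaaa

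The *Hoxd13* stretch held 31 CG dinucleotides, and 5.19% of the 32851 start regions of the same length in the table held as many or more. Those before the second start of *Hoxd11*, which lies inside the gene as annotated, and before *Hoxd10* held 20 each (17.9% of regions held as many), *Hoxd9* held 13 (31.5%), *Hoxd12* held 10 (37.8%) and *Hoxd8* held 6 (50.4%), where the median of all regions was 6. The first start of *Hoxd11*, which is the annotated start of the gene, had 2 before it (81.2%). Among the 24 *Hox* start regions the median was 12.5, the same as in the 10 of HoxD, and *Hoxa13* held 35 (2.97%). The letters TTTATG, searched on both strands as the core that posterior Hox proteins are known to bind, were found once among the 7 stretches, 87 bases before the first start of *Hoxd11*, in 5 of the 24 *Hox* start regions in the table (20.8%) and in 10.8% of all regions. The letters TATAAA, also on both strands, were found at 1 place among these stretches, before *Hoxd13*, where the matches on the 2 strands overlap, and in 12.4% of all regions. A match or its absence describes these letters in this window only. *Hoxb13*, *Hoxb9*, *Hoxb7*, *Hoxb6* and *Hoxb5* had no entry in the table.

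In WT, *Hoxd13* had 17.4, 7.19, 1.97 and 10.7 CPM in D80 colon and 143, 93.6, 55.0, 114 and 117 CPM in tumors. *Hoxd12* had 0.789, 0.382, 0.0896 and 0.784 CPM in colon and 27.7, 17.2, 12.04, 38.7 and 35.2 CPM in tumors. *Hoxd11* had 0.338, 0.594, 0.239 and 0.910 CPM in colon and 10.3, 12.8, 6.67, 10.7 and 17.1 CPM in tumors. Every tumor library lay above every colon library for the 6 genes. Of the 25 *Hox* genes tested, 8 lay entirely above and 1 entirely below, where 20.8% and 13.4% of all genes did. WT tumor mouse 542 was the lowest tumor for *Hoxd13*, *Hoxd12*, *Hoxd11* and *Hoxd10*. The log2 fold changes (edgeR) were 5.58 ± 0.63 for *Hoxd12* (adjusted p = 0.00037), 4.30 ± 0.44 for *Hoxd11* (0.000295), 3.95 ± 0.40 for *Hoxd10* (0.000296), 3.33 ± 0.58 for *Hoxd13* (0.00239), 2.81 ± 0.26 for *Hoxd9* (0.000197) and 1.22 ± 0.32 for *Hoxd8* (0.0168). Without WT D80 mouse 581, which had the most *Hoxd13* of the colons, *Hoxd13* had 3.86 ± 0.55 (adjusted p = 0.000653), and all 6 genes kept their calls. The same fit also called *Hoxa2* (-1.40 ± 0.22), *Hoxb3* (-1.27 ± 0.36) and *Hoxa6* (-1.15 ± 0.32) lower.

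The size of the change was therefore not ordered by paralog number, since *Hoxd12* exceeded *Hoxd13*, but *Hoxd8*, at the anterior edge of the group, had the smallest of the 6. *Hoxd3*, *Hoxd4* and *Hoxd1*, farther along the cluster, had 0 to 0.0714 CPM in tumors. With no filter on low counts 10 *Hox* genes were called in WT, among them the sparse *Hoxd3*, *Hoxc4* and *Hoxb2*, each with fewer counts in tumors than in colon. In KO, *Hoxd13* had 6.81, 1.87, 3.29 and 1.53 CPM in colon and 122, 128 and 105 CPM in tumors, and *Hoxd12* had 0.275, 0.129, 0.348 and 0.307 CPM in colon and 18.6, 40.4 and 16.9 CPM in tumors. The log2 fold changes in KO (edgeR) were 6.57 ± 0.42 for *Hoxd12* (adjusted p = 0.000125), 5.31 ± 0.38 for *Hoxd11* (0.000182), 5.11 ± 0.50 for *Hoxd13* (0.000371), 4.78 ± 0.36 for *Hoxd10* (0.000187) and 3.38 ± 0.29 for *Hoxd9* (0.000256). *Hoxd8* had 0.93 ± 0.32 (adjusted p = 0.0437), short of 2-fold. Thus 5 genes, *Hoxd9* to *Hoxd13*, were called higher in tumors of both genotypes. Of these, *Hoxd10* and *Hoxd11* passed the count filter in KO only through the tumor libraries, which favours a call higher.

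Outside HoxD the tumor values were smaller and more mixed. In WT, *Hoxb5* fell by 2.45 ± 0.48 (adjusted p = 0.00413, edgeR), from 1.69, 2.25, 2.24 and 4.07 CPM to 1.17, 0.389, 0.334, 0.445 and 0.202 CPM. In KO, *Hoxb7* (1.71 ± 0.28, adjusted p = 0.00231) and *Hoxb6* (1.26 ± 0.43, adjusted p = 0.0403) rose. *Hoxa6* fell by 1.40 ± 0.34 (adjusted p = 0.0119) and *Hoxa2* fell by 1.09 ± 0.39 (adjusted p = 0.0472) in KO. *Hoxb13*, already the highest *Hox* gene in D80 colon, had 0.46 ± 0.31 in WT (adjusted p = 0.284) and 0.94 ± 0.22 in KO (adjusted p = 0.01), where all KO tumors, at 210, 199 and 135 CPM, lay above all KO colons, as 26.4% of all genes did (27.9% lay entirely below). That increase of 1.92-fold stayed under the threshold, and it passed without KO D80 mouse 527 (1.09) or without KO tumor mouse 544 (1.10).

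Of 25 *Hox* genes tested in WT, 7 were called higher in tumor and 1 lower, where 8% and 13.5% of all genes were. In KO 7 were called higher and 2 lower, where 10.3% and 16.4% of all genes were. All 6 HoxD genes tested were called higher in WT and 5 of 6 in KO, whereas the median log2 fold change was -0.28 in WT and -0.30 in KO for the 11 HoxA genes and -0.25 and 0.28 for the 8 HoxB genes. The HoxD medians were 3.64 and 4.95, beside -0.06 and 0.01 over all genes tested. In WT, *Hoxd8* to *Hoxd12* passed the count filter only through the tumor libraries, which favours a call higher. With the mouse as a block, which uses the colon and tumor pairs from the same animals, *Hoxa6* (adjusted p = 0.0582) and *Hoxa2* (adjusted p = 0.131) lost their calls in KO. The call of *Hoxb6* was lost without KO D80 mouse 527, 535 or 544 or KO tumor mouse 543, and that of *Hoxa2* without KO D80 mouse 535, 543 or 544 or KO tumor mouse 543 or 544.

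**Figure D5:**
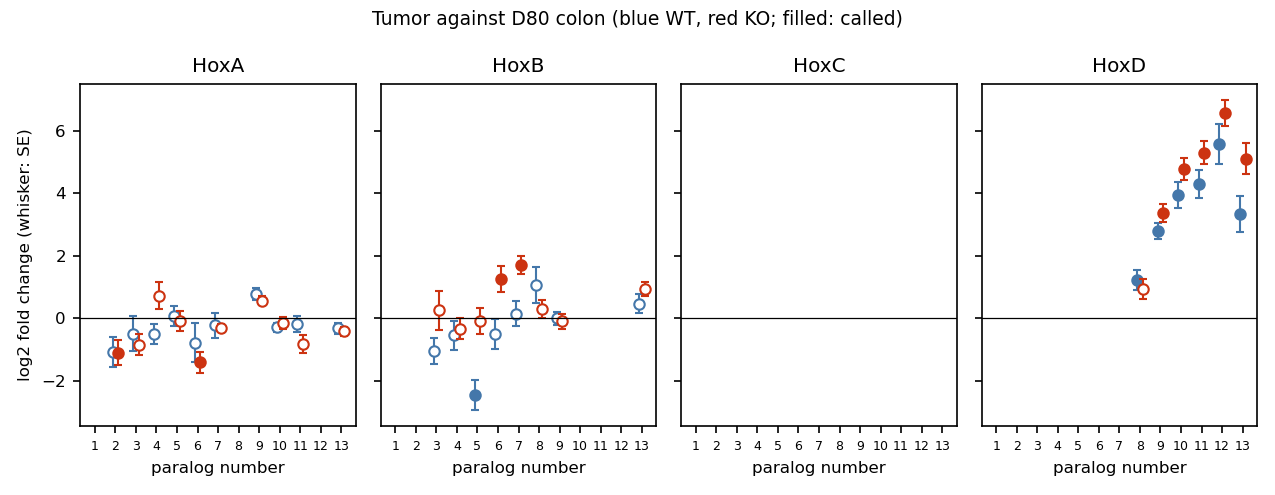
Log2 fold change (± SE) of tumor against D80 colon for the *Hox* genes reported, by paralog number in the 4 clusters (blue WT, red KO; filled points are called at adjusted p under 0.05 and fold over 2). HoxD points from paralog 9 to 13 lie between 2.81 and 6.57 in both genotypes, while HoxA points lie between -1.40 and 0.77.

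The genes beside the clusters were examined to see where the tumor change ended, and were chosen by position after the *Hox* values had been seen. *Evx2*, a homeobox gene next to *Hoxd13*, was called higher in tumor, with a log2 fold change of 2.98 ± 0.50 in WT (adjusted p = 0.00211, edgeR) and 3.91 ± 0.28 in KO (0.000182). Next to it, *Lnpk* had 0.22 ± 0.18 in WT and 0.19 ± 0.15 in KO, and *Mtx2*, beyond the other end of HoxD, had -0.28 ± 0.29 and 0.71 ± 0.26, none of them called. *Evx1*, the counterpart of *Evx2* beside *Hoxa13*, rose by 2.93 ± 0.37 in WT (adjusted p = 0.000523) and 2.08 ± 0.38 in KO (0.00372), although *Hoxa13* itself had -0.32 ± 0.19 and -0.42 ± 0.15. *Hottip*, a noncoding RNA at the same end of HoxA, fell by 1.71 ± 0.25 in WT and by 1.23 ± 0.22 in KO. *Hoxb5os*, antisense to *Hoxb5*, fell by 4.73 ± 0.73 in WT. The list of noncoding RNAs and neighbours, with 17 of 19 names in the table, had 3 members called higher and 3 lower of 9 tested in WT (all genes 8% and 13.5%), and 3 higher and 4 lower in KO (10.3% and 16.4%). At D19 it had 1 higher, *Evx2* (3.04 ± 0.74, adjusted p = 0.00768), and 3 lower of 10 in WT (9.33% and 4.04%), and 0 of 9 in KO.

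Some of these rows share exonic sequence. Without a known strand setting, reads from a gene and its antisense partner cannot be told apart, which concerns *Hoxb3* (52.9% of exonic bases under an annotated gene on the other strand), *Hoxa11* (35.0%), *Hoxb2* (27.3%), *Hoxa3* (25.4%) and *Hoxa7* (20.4%). On the same strand, *Hoxd3* (62.3%) and *Hoxd4* (52.3%) overlapped another gene over much of their length, *Hoxa2* over 15.0%, *Hoxd11* over 10.8% and *Hoxd10* over 5.73%. Values of these genes are uncertain to that extent.

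Markers of cell types also differed between tumor and whole colon. Of all genes, 8% were called higher and 13.5% lower in WT, and 10.3% and 16.4% in KO. All 10 smooth muscle markers were called lower in tumors of both genotypes, as were 10 of 11 enteric neuron and glia markers in WT and 9 of 11 in KO, while 0 and 1 of 8 epithelial markers changed (1 lower in KO). The colon list was called lower in 6 of 8 genes in WT and 7 of 8 in KO. All 8 squamous epithelium markers tested were called higher in both. Only 5 genes of that list had enough counts for a test between genotypes at D80, so the count filter favours calls higher here. The list summed to 8.55 to 18.6 CPM in WT D80 colon and 113 to 1550 CPM in WT tumors, and 4.10 to 28.0 and 385 to 618 CPM in KO, with *Sprr3* listed at 0 in all colon libraries. Fibroblast markers were called lower in 1 of 8 genes in WT, near the share of all genes, and in 4 of 8 in KO. Immune markers were called higher in 1 and lower in 2 of 8 in WT, and lower in 6 of 8 in KO. Small intestine markers were called higher in 2 and lower in 1 of 5 in WT, and lower in 2 of 6 in KO. Skeletal muscle markers were called lower in 1 of 3 in WT and 2 of 4 in KO. The part of these differences in the HoxD values was not tested.

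Between the genotypes, tumors differed in 2 middle HoxB genes under the looser threshold set for tumors (unadjusted p under 0.01 and fold change over 2). *Hoxb7* had 2.13, 1.59, 1.75, 1.86 and 0.505 CPM in WT tumors and 3.57, 4.88 and 3.93 CPM in KO tumors, and *Hoxb6* had 1.73, 0.988, 1.22, 1.02 and 0.202 CPM in WT and 2.45, 4.77 and 2.46 CPM in KO. All KO tumors lay above all WT tumors in both genes, as in 2.12% of all genes (1.13% entirely below), and WT mouse 555 was the lowest in each. The log2 fold changes were 1.44 ± 0.38 for *Hoxb7* and 1.68 ± 0.51 for *Hoxb6*, both with an adjusted p of 0.699 (edgeR). *Hoxb5*, between them and *Hoxb4* on chromosome 11, had 1.32 ± 0.52, short of that threshold. These were 2 of 25 genes tested called higher and 0 lower, where 0.264% of all genes were called higher and 0.0422% lower. DESeq2 called the same 2, and over all genes it made more calls here than edgeR (counts in the last paragraph). Leaving out KO mouse 543 or KO mouse 544 ended both calls, and leaving out WT mouse 541, 542 or 579 ended that of *Hoxb6*.

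No posterior gene was called between tumors of the 2 genotypes. *Hoxb13* had 183, 142, 193, 203 and 283 CPM in WT tumors and 210, 199 and 135 CPM in KO, with a log2 fold change of -0.11 ± 0.22 (adjusted p = 0.875, edgeR) whose sign depended on single libraries. *Hoxd13* had 0.23 ± 0.25, *Hoxd12* -0.01 ± 0.39 and *Hoxd10* -0.14 ± 0.24, and without KO mouse 544 the last 2 turned to 0.16 ± 0.46 and 0.06 ± 0.23. For the interaction of genotype and tumor, edgeR and DESeq2 called 0 of 26 *Hox* genes (all genes 0% higher and 0% lower), with 5 at an unadjusted p under 0.05. The smallest p values belonged to *Hoxb5* (2.36 ± 0.66), *Hoxb7* (1.55 ± 0.51) and *Hoxb6* (1.75 ± 0.68), each with an adjusted p of 0.419, and *Hoxb13* had 0.48 ± 0.41 (0.615). The interaction shares its libraries with the comparisons of tumor and colon within each genotype and of the genotypes in tumor.

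Genes that act with or on *Hox* genes were counted from lists. Beside them, 8% of all genes were called higher and 13.5% lower in WT tumor, 10.3% and 16.4% in KO tumor, 9.33% and 4.04% at D19 in WT, and 8.95% and 2.52% at D19 in KO. Of the TALE homeodomain cofactors, which bind DNA together with Hox proteins, 1 of 9 was called higher in WT tumor and 2 lower, counts near those shares: *Pbx3* (-1.46 ± 0.27), *Pbx4* (2.15 ± 0.54) and *Pknox2* (-1.48 ± 0.45). In KO tumor 1 was higher and 3 lower, led by *Pbx3* (-1.30 ± 0.16), *Pknox2* (-1.85 ± 0.29) and *Meis1* (-1.46 ± 0.29). No TALE gene was called at D19 in either genotype. Of the Cdx genes and other gut regional factors, 3 of 10 were called higher and 2 lower in WT tumor and 4 of 11 higher and 2 lower in KO. *Cdx2*, the intestinal homeobox factor known to act upstream of *Hox* genes, fell by 2.71 ± 0.40 in WT tumor and by 3.05 ± 0.45 in KO tumor, and by 1.33 ± 0.09 in WT and 1.36 ± 0.29 in KO at D19. *Gdf11*, a TGF-beta family ligand known to set posterior *Hox* domains in the embryo, rose by 3.16 ± 0.56 in WT tumor, and *Gata5* rose by 3.07 ± 0.64. At D19 2 genes of that list were called lower in WT, *Cdx2* and *Gata4* (-1.12 ± 0.40), and 1 in KO.

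In retinoic acid signaling, the vitamin A pathway that switches on anterior *Hox* genes in the embryo, 5 of 12 genes were called higher and 3 lower in WT tumor (all genes 8% and 13.5%) and 6 of 11 higher and 1 lower in KO (10.3% and 16.4%), with median log2 fold changes of 1.13 and 1.40. The retinal dehydrogenase *Aldh1a1* fell by 3.6 ± 0.26 in WT and 3.54 ± 0.32 in KO. *Stra6*, a retinol transporter, rose by 4.38 ± 0.60 in WT and 3.37 ± 0.46 in KO. At D19, 2 of 11 were called higher and 2 lower in WT (9.33% and 4.04%), led by *Aldh1a2* (-1.85 ± 0.18), *Aldh1a1* (-1.69 ± 0.30) and *Stra6* (1.89 ± 0.33), and 4 of 12 higher and 1 lower in KO, among them *Aldh1a3* (2.89 ± 0.32) and *Crabp2* (5.51 ± 0.82). Of 17 Polycomb and Trithorax regulators, the chromatin factors that keep *Hox* clusters off or on, 3 were called higher in WT tumor, *Phc2* (1.42 ± 0.28), *Cbx2* (1.94 ± 0.38) and *Ezh2* (1.42 ± 0.32), and 2 in KO tumor, *Ezh2* (1.06 ± 0.16) and *Cbx2* (1.47 ± 0.31). None of the 17 was called at D19. No member of any list was called between genotypes at D0, D19 or D80 or in tumor, nor in either interaction.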

How the data were processed

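RNA from whole colon and tumors was sequenced as single-end 75-nt reads (TruSeq RNA, NextSeq). The deposited unit was the raw count per gene symbol, which the authors made with FastQC 0.11.5, STAR (mm10) and Subread. The strand setting is not given in the sources used here. Counts were tested as deposited with edgeR 4.0.16 in R 4.3.3 (TMM normalization, filterByExpr, glmQLFit in legacy mode, glmQLFTest), with Benjamini-Hochberg adjustment over all genes tested and the libraries of the groups compared in each fit. Calls required more than a 2-fold difference together with an adjusted p below 0.05, or, between genotypes in tumor, a nominal p below 0.01. The SE is the log2 fold change divided by the root of F. CPM used TMM factors over all 32 libraries, and levels between genes were divided by exon length (GENCODE M21, GRCm38). Groups came from the sample labels, and libraries of a group are from separate mice. Totals ran from 18951121 to 47623288 counts. Intervals of counting error were not needed beyond the floor of 3 counts, which covers counting error only.

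Named genes were, in each comparison, up to 10 *Hox* genes called with the smallest p (the first 3 by p where fewer than 3 were called), *Hoxb13* between genotypes and between tumor and colon, *Dnase1l3* once, and up to 3 called members of each other list. Neighbouring genes and others named for position or single libraries were chosen after their values were seen. The members and lists were chosen with earlier results of these data known. Alternatives were DESeq2 1.42.0, RLE size factors, other filters, another edgeR mode, all libraries in a single fit, blocks by mouse or by the first number of the title, and leaving out libraries. Pairing of D80 colon and tumor follows the mouse numbers in the labels, and the 6 pairs had correlations of their deviations from the group means of 0.0340 to 0.259 across 17591 genes. Some genes of these lists are not reported here. Scripts were tested on simulated counts.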

Additional observations from a re-analysis of the deposited data

Results flagged for a closer look

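In groups of 4 and 5 libraries, 119 pairs of gene and group with a median of at least 1 CPM were examined for a library far from the others, and 4 were found (3.36 per 100), where chance gives about 1 in 20. *Hoxa3* had 0.405 CPM in KO D19 mouse 811, against 6.69 to 7.11 CPM in the other KO D19 libraries. *Hoxd13* had 14.2 CPM in the same library, against 3.84 to 4.38 CPM in the others. *Hoxa3* had 0.620 CPM in WT D80 mouse 581, against 6.99 to 7.94 CPM in the other WT D80 libraries. *Hoxa7* had 3.49 CPM in that library, against 18.8 to 20.2 CPM in the others. Both libraries had the highest mitochondrial share of their group, 10.4% and 14.8%, and its part in these values was not tested.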

How the results depend on the processing

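Changing to RLE size factors, or adding the mouse as a block, changed no count of *Hox* genes called by more than 1.5 times, and each other alternative did so in 1 or more comparisons. With no filter on low counts 1 gene (*Hoxd13*) was called between genotypes at D0, and with the first number of the title as a block 2 were. DESeq2 called 1 between genotypes at D19 and 2 in the interaction of genotype and D19, where edgeR without legacy mode, with all libraries in a single fit and without the libraries of high mitochondrial share (chosen after seeing the data) called 1 each. A filter of at least 10 counts in every library, which removes genes near 0 in 1 group, left 3 calls of 7 for D19 against D0 in WT, 1 of 8 for tumor against D80 in WT and 1 of 2 between genotypes in tumor. Without the libraries of high mitochondrial share, the last count was 0. Leaving out 1 library at a time gave 0 to 2 calls for D19 against D0 in KO, 7 to 9 in WT, 0 to 3 between genotypes in tumor, 0 to 2 for the interaction with D19, and 7 to 10 for tumor against D80 in each genotype, and 0 for the genotypes at D0, D19 and D80 and for the interaction with tumor.

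The value of *Hoxb13* between genotypes in tumor turned from -0.11 to 0.028 with the first number of the title as a block, to 0.020 without the libraries of high mitochondrial share, and ranged from -0.20 to 0.042 with a library left out (0.020 without KO mouse 544, 0.042 without WT mouse 555), and the cause was not tested. With the mouse as a replicate block, which uses the paired colon and tumor of the same animals, 9 genes were called for tumor against D80 in WT, 7 in KO and 0 in the interaction. Of 800 values of named genes under the alternatives, 729 kept their direction and their side of the threshold, 45 lost the call, 22 gained it and 4 turned. Over all genes, edgeR called 0 between genotypes at D0 and DESeq2 40, at D19 0 and 320, at D80 0 and 43, in tumor 58 and 183, and in the interaction with D19 6 and 169. Genes with few counts in both groups remain beyond the depth of these libraries.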
